A study of Homo sapiens with 12 samples.

Results

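The mitosis genes are 35 genes whose products drive or carry out cell division. They were taken as the rows of the deposited count table with these symbols, and all 35 were found among 56269 symbols. All 35 also passed the filter on low counts, which left 16115 genes to be tested. The cells were C4-2, a human prostate cancer line that descends from LNCaP, grows without testicular androgen and still responds to it. Cells received either a nonspecific siRNA or one directed at paxillin (PXN), a scaffold protein of focal adhesions, for 48 h, were held without serum for 12 h, and then received ethanol vehicle or 2.5 nM dihydrotestosterone (DHT), a potent natural androgen, for 24 h. Crossing the siRNAs with the treatments gave 4 groups of 3 RNA sequencing libraries, named here nonspecific vehicle, nonspecific DHT, paxillin vehicle and paxillin DHT. Every group is the same single cell line, carries an siRNA and went through the same serum-free period. Whether the replicates came from separate cultures is not in the labels. The p-values therefore reflect no more than the spread among libraries within groups, which may be technical. That spread was estimated over all 4 groups together, with information shared across genes.

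Mitosis begins when CDK1, bound to cyclin A or cyclin B, phosphorylates structural and regulatory proteins. The spindle then attaches to kinetochores under the watch of a checkpoint, the anaphase-promoting complex with CDC20 releases separase, and motors and bundling proteins split the cell. Most of these genes are transcribed late in the cell cycle, through CCAAT boxes bound by NF-Y and through the cell cycle genes homology region (CHR), an element bound by the MuvB complex. MuvB works as a repressor in quiescent cells and as an activator with B-MYB and FOXM1 in dividing cells. In bulk RNA, fewer dividing cells and less of a transcript in each dividing cell cannot be told apart.

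The promoters below are shown because they carry these shared elements and belong to genes on which the expression results turn. These are the kinase CDK1, called higher with DHT under nonspecific siRNA, its partner CCNB2, and PLK1, CDC20, ESPL1 and TOP2A. CDK1 was not called under paxillin siRNA, but its DHT responses were not shown to differ (interaction, edgeR adjusted p = 0.369). The other genes had lower mean levels with DHT under both siRNAs, though for PLK1 the change was significant only with paxillin siRNA. Each runs 5′ to 3′ on the gene's own strand, from 250 bases before to 50 bases after the RefSeq start, in GRCh38.p14. They lie at chr10:60778081-60778380 (CDK1, plus strand), chr15:59104896-59105195 (CCNB2, plus strand), chr16:23678639-23678938 (PLK1, plus strand), chr1:43358731-43359030 (CDC20, plus strand), chr12:53268049-53268348 (ESPL1, plus strand) and chr17:40417847-40418146 (TOP2A, minus strand). Capitals mark CCAAT, which reads ATTGG when it lies on the other strand, and the CHR element TTTGAA, which then reads TTCAAA.
CDK1: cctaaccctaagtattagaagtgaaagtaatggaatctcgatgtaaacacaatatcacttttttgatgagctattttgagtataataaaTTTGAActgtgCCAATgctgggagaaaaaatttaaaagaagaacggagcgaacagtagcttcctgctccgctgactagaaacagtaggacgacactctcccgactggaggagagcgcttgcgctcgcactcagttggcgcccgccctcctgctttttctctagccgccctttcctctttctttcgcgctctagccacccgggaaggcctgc
CCNB2: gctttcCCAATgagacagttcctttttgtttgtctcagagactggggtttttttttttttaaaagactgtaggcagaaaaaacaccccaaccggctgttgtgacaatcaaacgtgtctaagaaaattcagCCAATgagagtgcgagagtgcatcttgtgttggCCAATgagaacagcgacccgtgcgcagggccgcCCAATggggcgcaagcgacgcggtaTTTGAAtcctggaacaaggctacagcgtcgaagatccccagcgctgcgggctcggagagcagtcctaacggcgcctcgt
PLK1: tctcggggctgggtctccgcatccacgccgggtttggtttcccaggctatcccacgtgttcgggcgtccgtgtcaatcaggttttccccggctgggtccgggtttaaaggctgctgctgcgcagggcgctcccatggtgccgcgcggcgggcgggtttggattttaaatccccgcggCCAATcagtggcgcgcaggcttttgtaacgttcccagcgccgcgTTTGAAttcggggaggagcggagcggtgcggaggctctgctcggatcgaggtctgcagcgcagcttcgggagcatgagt
CDC20: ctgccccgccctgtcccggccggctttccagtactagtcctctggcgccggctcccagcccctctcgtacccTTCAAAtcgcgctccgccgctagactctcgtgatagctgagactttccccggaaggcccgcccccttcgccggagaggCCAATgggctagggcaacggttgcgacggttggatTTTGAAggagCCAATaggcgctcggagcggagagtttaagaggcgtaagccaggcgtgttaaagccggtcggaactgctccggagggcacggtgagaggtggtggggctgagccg
ESPL1: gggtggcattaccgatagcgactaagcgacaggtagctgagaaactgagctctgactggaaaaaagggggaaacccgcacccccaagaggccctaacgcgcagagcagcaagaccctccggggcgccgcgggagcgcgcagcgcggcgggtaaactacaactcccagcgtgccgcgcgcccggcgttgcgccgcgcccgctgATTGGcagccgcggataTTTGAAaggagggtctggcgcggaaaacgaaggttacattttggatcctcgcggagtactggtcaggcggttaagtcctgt
TOP2A: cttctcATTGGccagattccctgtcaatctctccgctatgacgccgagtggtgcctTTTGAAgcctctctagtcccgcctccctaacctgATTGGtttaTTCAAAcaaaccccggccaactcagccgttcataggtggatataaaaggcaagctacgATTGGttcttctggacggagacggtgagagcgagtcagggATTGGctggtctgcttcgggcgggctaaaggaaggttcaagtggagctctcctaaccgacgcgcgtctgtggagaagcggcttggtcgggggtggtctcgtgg

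RefSeq promoters were matched by symbol for 30 of the 35 members. AURKA, TTK, BIRC5, TPX2 and UBE2C had no entry. CCAAT was found, on either strand, in 23 of the 30 promoters (76.7%) and in 35.7% of all 27305 RefSeq promoters of the same length. A CHR element, TTTGAA or the variant TTCGAA, was found in 23 of the 30 (76.7%) and in 16.6% of all promoters. TTTGAA alone accounted for 22 members (73.3%, against 15.4% of all promoters) and TTCGAA for 2 (6.67%, against 1.45%). Both CCAAT and a CHR element stood in 19 of 30 (63.3%), against 6.58% of all promoters, and at least 2 CCAAT boxes stood in 12 (40.0%, against 11.3%). The strings were searched on both strands, and a CCAAT box shared a base with a CHR element once, in MKI67. AGAACA, the hexamer of the androgen response element, was found in 3 of 30 (10.0%) and in 14.9% of all promoters. The E2F strings TTTCCCGC and TTTGGCGC were each found in 1 member (3.33%), against 1.66% and 0.659% of all promoters.

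In CCNB2, the CHR element lay at positions -29 to -24, counted from the start, behind 4 CCAAT boxes. The CHR element of PLK1 lay at the same distance, and that of ESPL1 at -31 to -26, each with 1 CCAAT box upstream. CDK1 differed from these within the window, since its TTTGAA lay at -161 to -156 and its CCAAT box followed at -150 to -146. These positions depend on the RefSeq start used. Sequence outside the window was not searched, so the layout of the whole CDK1 promoter is not shown. CDC25C, CENPE and KIF2C held neither motif in this window. A match to these letters is a description of the sequence and not of a bound site.

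**Figure D1:**
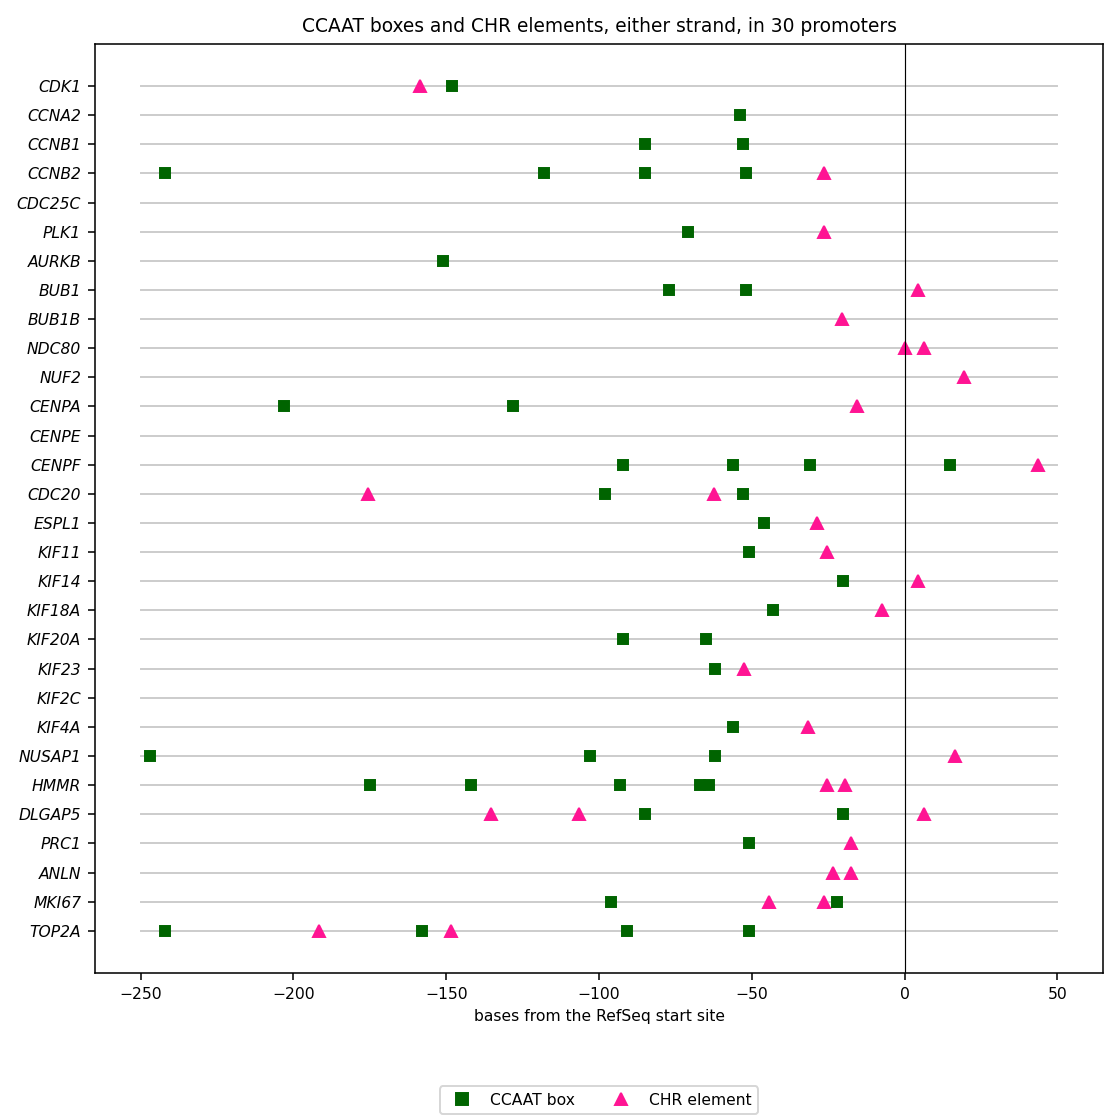
Positions of CCAAT boxes (squares) and CHR elements (triangles), on either strand, in bases from the RefSeq start for the 30 members with a promoter entry. Most squares lie between 100 bases upstream and the start, and 19 promoters hold both marks.

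Library totals ran from 11944906 counts in nonspecific vehicle replicate 1 to 32040465 in paxillin DHT replicate 1, so 1 count equalled 0.0328 to 0.0815 CPM (counts scaled to the TMM-adjusted size of the library). Mitochondrial transcripts took 3.17% to 5.62% of the counts. PXN, the target of the siRNA, had a group mean of 146 CPM ± 6.65 (SD, n = 3) with nonspecific siRNA in vehicle and 13.8 CPM ± 2.51 (SD, n = 3) with paxillin siRNA. In DHT the means were 127 and 11.6 CPM. The edgeR model put PXN 10.6-fold lower in vehicle and 10.8-fold lower in DHT. Of 12 basal, stromal, immune and endothelial markers, 10 summed to at most 0.862 CPM in any library. COL1A1 (mean of 41.2 CPM in nonspecific vehicle and 26.3 CPM in paxillin DHT) and VWF (11.8 and 12.6 CPM) made up the rest. The sum of the 12 ran from 47.6 to 61.5 CPM in nonspecific vehicle, 46.1 to 51.0 in nonspecific DHT, 40.8 to 47.3 in paxillin vehicle and 36.6 to 42.6 in paxillin DHT. COL1A1 fell with DHT under paxillin siRNA (log2 fold change -0.37, adjusted p = 0.00226) and with paxillin siRNA in both treatments, and whether this bears on the mitosis genes was not tested.

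All 35 mitosis genes were expressed in every group. Per kilobase of exon (GENCODE 29), CCNB1 had the highest level in nonspecific vehicle at 43.2 CPM per kb, followed by CDC20 at 28.2, TPX2 at 23.2, CDK1 at 20.7 and NUSAP1 at 20.5 CPM per kb. KIF18A (1.20 CPM per kb), KIF14 (1.65) and CENPE (2.07) stood at the lower end. CCNB1 also had the highest level in paxillin DHT, at 32.4 CPM per kb, followed by CDC20 and CDK1 at 21.5 CPM per kb each and TPX2 at 18.5. TOP2A moved from rank 13 to rank 18 between those groups, and the 3 lowest ranks stayed with KIF18A, KIF14 and either CENPE or ESPL1.

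The first comparison asked how DHT changed these genes in cells with nonspecific siRNA. Of the 35 members, 18 fell, 1 rose and 16 did not pass the test, by edgeR's quasi-likelihood test at a Benjamini-Hochberg adjusted p under 0.05 over all genes. Over all genes tested, 18.9% were called lower and 21.6% higher. The members' median log2 fold change was -0.26, against -0.01 over all genes, and 34 of the 35 lay below 0. The largest fall was 1.58-fold, and CDK1 was the member that rose. Upper-quartile scaling moved the split over all genes from 3053 lower and 3481 higher to 3896 and 2707, and with it 22 members fell and CDK1 rose.

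With paxillin siRNA, DHT lowered 26 of the 35 members, raised none and left 9 uncalled, against a background of 17.9% lower and 20.1% higher. The median log2 fold change was -0.35, against -0.01 over all genes, and all 35 values lay below 0. With upper-quartile scaling the split over all genes moved from 2886 lower and 3234 higher to 3935 and 2262, and 30 members fell. The DHT comparisons under the 2 siRNAs share no libraries. Of the 18 members that fell with nonspecific siRNA, 17 (94.4%) also fell with paxillin siRNA, and these 17 were 65.4% of the 26. Over all genes, 68.5% of those called lower with nonspecific siRNA were called lower with paxillin siRNA, and 72.4% the other way round.

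**Figure D2:**
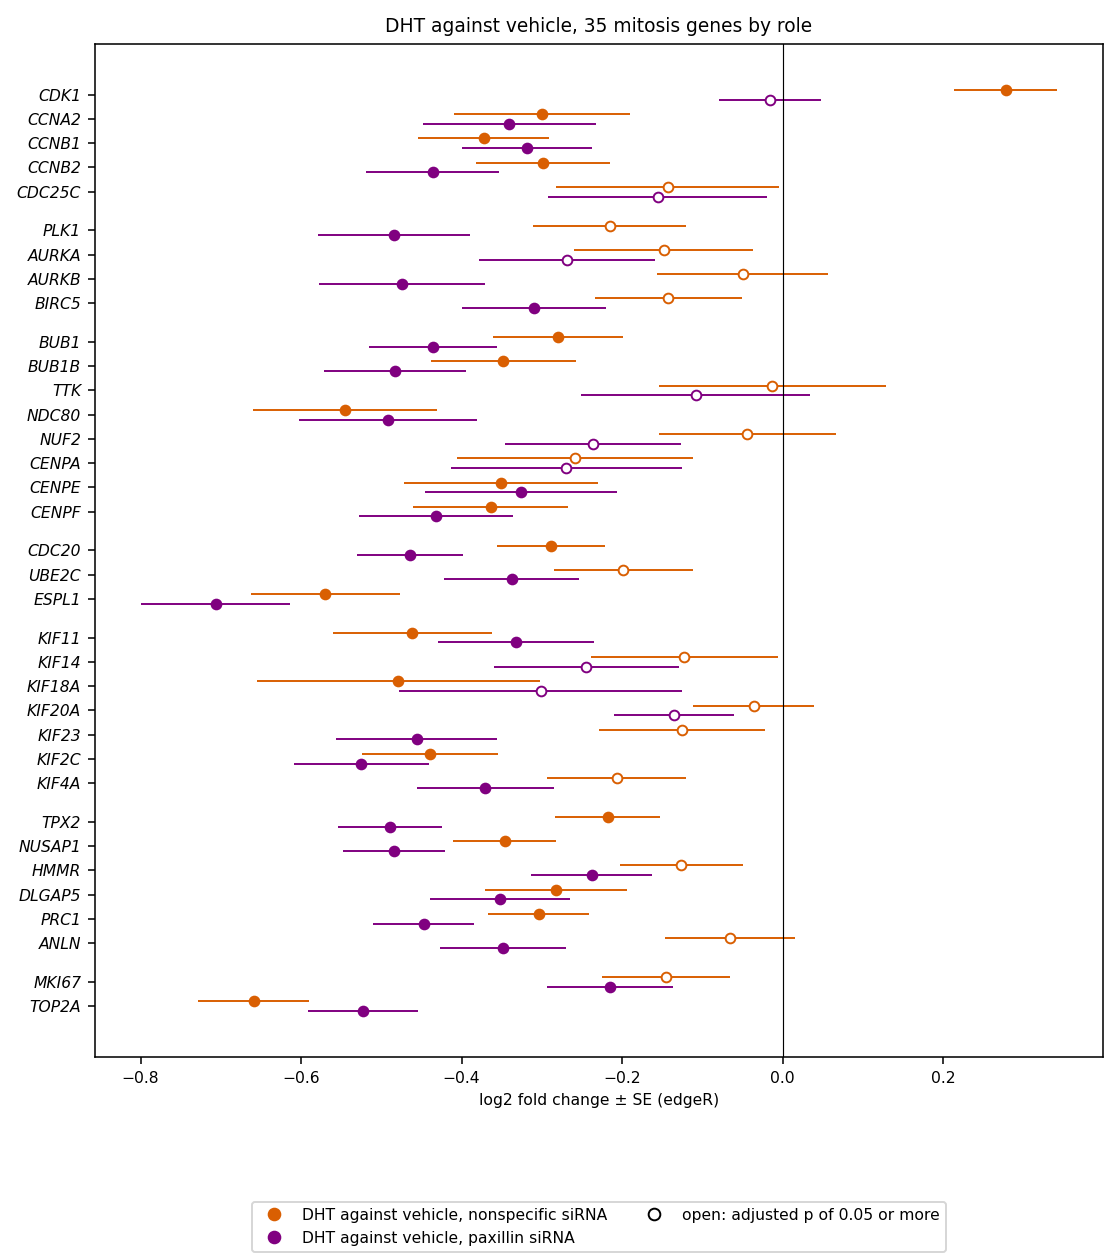
Log2 fold change of DHT against vehicle for the 35 members, grouped by role, with nonspecific siRNA (orange) and paxillin siRNA (purple). Points are estimates with their SE from edgeR, and open points have an adjusted p of 0.05 or more. CDK1 with nonspecific siRNA is the one point to the right of 0.

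Among the cyclins and the mitotic kinase, CCNB1, CCNB2 and CCNA2 fell under both siRNAs and CDK1 did not. CCNB1, the cyclin B that carries CDK1 into mitosis, had 105, 116 and 112 CPM in nonspecific vehicle and 79.2, 89.8 and 87.7 CPM in nonspecific DHT. Its 3 paxillin vehicle libraries had 96.5, 109 and 104 CPM, and its paxillin DHT libraries 71.5, 90.8 and 86.2 CPM. Each DHT library lay below each vehicle library of the same siRNA. The log2 fold change was -0.37 ± 0.08 (SE, edgeR adjusted p = 0.00132) with nonspecific siRNA and -0.32 ± 0.08 (adjusted p = 0.00449) with paxillin siRNA.

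CCNB2 fell by 0.30 on the log2 scale with nonspecific siRNA (edgeR adjusted p = 0.00801) and by 0.44 with paxillin siRNA (adjusted p = 0.000418). For CCNA2, the S and G2 phase cyclin, the falls were 1.23-fold (adjusted p = 0.0365) and 1.27-fold (adjusted p = 0.0182). The nonspecific CCNA2 call was lost without vehicle replicate 2 or 3 or without DHT replicate 2 or 3, where the adjusted p ran from 0.0639 to 0.147. The paxillin CCNA2 call was lost without vehicle replicate 2 or 3 or DHT replicate 1 (0.0606 to 0.116). CDC25C, the phosphatase that activates CDK1, had log2 fold changes of -0.14 and -0.16 and passed neither test (adjusted p = 0.439 and 0.401).

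CDK1, the kinase itself, had 74.1, 80.5 and 89.2 CPM in nonspecific vehicle and 101, 97.4 and 97.8 CPM in nonspecific DHT. In the paxillin groups it had 84.9, 87.9 and 83.8 CPM with vehicle and 87.4, 84.6 and 81.8 CPM with DHT. All 3 nonspecific DHT libraries stood above the other 9 libraries, which overlapped. CDK1 rose 1.21-fold with DHT under nonspecific siRNA (log2 fold change 0.28 ± 0.06 SE, edgeR adjusted p = 0.00213). Under paxillin siRNA its log2 fold change was -0.02, with a 95% interval of -0.15 to 0.12 (adjusted p = 0.871).

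Of the polo and aurora kinases and their partner BIRC5, 0 of 4 fell with nonspecific siRNA and 3 of 4 with paxillin siRNA. PLK1, the polo-like kinase of mitotic entry and spindle assembly, had 57.3, 60.8 and 69.1 CPM in nonspecific vehicle and 50.5, 52.5 and 58.7 CPM in nonspecific DHT. The paxillin libraries had 54.4, 66.3 and 56.6 CPM in vehicle and 36.9, 45.5 and 44.6 CPM in DHT. The nonspecific groups overlapped and the paxillin groups did not. PLK1 had a log2 fold change of -0.22 ± 0.10 SE with nonspecific siRNA (edgeR adjusted p = 0.0799; 0.0176 with the replicate number as a block) and fell by 0.48 ± 0.09 with paxillin siRNA (adjusted p = 0.000543).

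AURKA, the kinase of centrosomes and spindle poles, had 27.0, 37.0 and 38.6 CPM in nonspecific vehicle and 30.9, 32.8 and 30.0 CPM in nonspecific DHT. In the paxillin groups it had 30.3, 36.8 and 36.2 CPM with vehicle and 25.9, 31.1 and 28.9 CPM with DHT. Vehicle replicate 1 was the lowest of its group under both siRNAs, and vehicle and DHT overlapped. Neither log2 fold change passed the test (-0.15, edgeR adjusted p = 0.311, and -0.27, adjusted p = 0.0634). Without nonspecific vehicle replicate 1 the first was -0.28 (adjusted p = 0.0299), and with the replicate block the second had an adjusted p of 0.00691.

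AURKB, the catalytic kinase of the chromosomal passenger complex, had 14.0, 13.3 and 17.3 CPM in nonspecific vehicle and 15.3, 14.5 and 13.5 CPM in nonspecific DHT. In the paxillin groups its level was 16.7, 17.0 and 17.6 CPM in vehicle and 11.9, 13.4 and 11.6 CPM in DHT. The paxillin groups were separate and the nonspecific groups were mixed. AURKB fell by 0.47 with paxillin siRNA (edgeR adjusted p = 0.00141), and its value with nonspecific siRNA was -0.05 (adjusted p = 0.744). BIRC5, or survivin, which anchors that complex, fell 1.24-fold with paxillin siRNA (adjusted p = 0.0108), a call lost without paxillin vehicle replicate 2 (0.0505) or paxillin DHT replicate 1 (0.074).

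Of the 8 checkpoint and kinetochore genes, 5 fell under each siRNA, the same 5: BUB1, BUB1B, NDC80, CENPE and CENPF. CENPF, a kinetochore protein, lost its call with nonspecific siRNA without nonspecific vehicle replicate 2 (edgeR adjusted p = 0.0579). BUB1, a kinase of the spindle checkpoint, had 34.1, 31.9 and 30.8 CPM in nonspecific vehicle and 27.4, 26.7 and 25.4 CPM in nonspecific DHT. With paxillin siRNA it had 29.7, 31.0 and 31.5 CPM in vehicle and 21.7, 25.5 and 21.0 CPM in DHT. Vehicle and DHT did not overlap under either siRNA, with log2 fold changes of -0.28 (edgeR adjusted p = 0.0099) and -0.44 (adjusted p = 0.000287).

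NDC80, the microtubule-binding subunit at the outer kinetochore, had 18.1, 21.6 and 19.0 CPM in nonspecific vehicle and 11.7, 14.5 and 14.2 CPM in nonspecific DHT. Its paxillin libraries had 18.7, 23.3 and 19.3 CPM in vehicle and 13.0, 15.4 and 15.3 CPM in DHT. The fall was 1.46-fold (edgeR adjusted p = 0.000956) and 1.41-fold (adjusted p = 0.00181). NUF2, the partner that binds NDC80 in the same complex, had log2 fold changes of -0.04 and -0.24 and passed neither test (adjusted p = 0.784 and 0.0993). TTK, the checkpoint kinase MPS1, stood at -0.01 and -0.11, and the centromeric histone CENPA at -0.26 and -0.27, none of them called. CENPE, a kinetochore motor, was called at adjusted p = 0.0268 and 0.0397. Its calls were lost without any 1 of 4 of the 6 libraries in each comparison, with adjusted p up to 0.13 (nonspecific) and 0.145 (paxillin).

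At mitotic exit, CDC20 and ESPL1 fell under both siRNAs, and UBE2C under paxillin siRNA. CDC20, the activator of the anaphase-promoting complex, had 55.1, 56.5 and 61.0 CPM in nonspecific vehicle and 46.8, 48.7 and 46.2 CPM in nonspecific DHT. With paxillin siRNA it had 57.6, 62.0 and 62.2 CPM in vehicle and 41.4, 47.4 and 43.0 CPM in DHT. No DHT library reached a vehicle library, and the falls were 1.22-fold (edgeR adjusted p = 0.00216) and 1.38-fold (adjusted p = 2.18e-05). UBE2C, the ubiquitin-conjugating enzyme of that complex, had log2 fold changes of -0.20 (adjusted p = 0.0756) and -0.34 (adjusted p = 0.00401).

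ESPL1 encodes separase, the protease that cuts cohesin so that sister chromatids part. It had 22.7, 21.5 and 22.8 CPM in nonspecific vehicle and 14.4, 15.7 and 14.9 CPM in nonspecific DHT. With paxillin siRNA it had 17.9, 18.7 and 19.2 CPM in vehicle and 10.7, 13.1 and 10.4 CPM in DHT. The 4 groups did not overlap, with nonspecific vehicle highest and paxillin DHT lowest. The log2 fold change of DHT was -0.57 ± 0.09 SE (edgeR adjusted p = 8.88e-05) with nonspecific siRNA and -0.71 ± 0.09 (adjusted p = 9.23e-06) with paxillin siRNA, the largest absolute change of a member in the second comparison.

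Of the 7 kinesin motors, KIF11, KIF2C and KIF18A fell with nonspecific siRNA, and KIF11, KIF2C, KIF23 and KIF4A with paxillin siRNA. KIF2C, which takes microtubules apart at centromeres, had 35.9, 42.0 and 45.5 CPM in nonspecific vehicle and 31.7, 29.3 and 30.6 CPM in nonspecific DHT. Its paxillin libraries had 35.2, 40.9 and 38.6 CPM in vehicle and 26.0, 28.1 and 25.6 CPM in DHT. All DHT libraries lay below all vehicle libraries, and the falls were 1.36-fold (edgeR adjusted p = 0.000462) and 1.44-fold (adjusted p = 8.15e-05).

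KIF11, the motor that pushes spindle poles apart, fell by 0.46 (edgeR adjusted p = 0.00111) and 0.33 (adjusted p = 0.0118), the second call being lost without paxillin DHT replicate 1 (adjusted p = 0.076). KIF23, the central spindle motor, stood at -0.13 with nonspecific siRNA (adjusted p = 0.358) and fell by 0.46 with paxillin siRNA (adjusted p = 0.00157). KIF4A, a chromosome-bound motor, stood at -0.21 (adjusted p = 0.0659; 0.0292 with the replicate block) and fell by 0.37 (adjusted p = 0.00212). KIF20A, a motor of cytokinesis, had log2 fold changes of -0.04 and -0.14, and KIF14, another motor of cytokinesis, of -0.12 and -0.24, none of them called (the last had an adjusted p of 0.108, and 0.0476 with the replicate block). KIF18A, which shortens kinetochore microtubules, had at most 5.83 CPM in any library. Its call with nonspecific siRNA (-0.48, adjusted p = 0.0372) was lost without any of 5 of the 6 libraries compared, with adjusted p from 0.0547 to 0.179, and with paxillin siRNA it stood at -0.30 (adjusted p = 0.194).

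Among the 6 genes of spindle assembly and cytokinesis, TPX2, NUSAP1, DLGAP5 and PRC1 fell under both siRNAs, and all 6 fell with paxillin siRNA. TPX2, which activates AURKA on spindle microtubules, had 81.4, 83.8 and 85.3 CPM in nonspecific vehicle and 74.0, 72.4 and 69.2 CPM in nonspecific DHT. Its paxillin libraries had 85.2, 94.2 and 102 CPM in vehicle and 66.4, 68.8 and 65.3 CPM in DHT. Both pairs of groups were separate, and the wider gap was that of the paxillin libraries. TPX2 fell by 0.22 (edgeR adjusted p = 0.0127) and 0.49 (adjusted p = 9.23e-06), and the first call was lost without nonspecific DHT replicate 3 (adjusted p = 0.0612).

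NUSAP1, a microtubule-bundling protein, fell 1.27-fold (edgeR adjusted p = 0.000314) and 1.40-fold (adjusted p = 8.94e-06). PRC1, the antiparallel bundler of the central spindle, fell 1.23-fold (adjusted p = 0.000868) and 1.36-fold (adjusted p = 1.87e-05). ANLN, the scaffold of the contractile ring, stood at -0.07 with nonspecific siRNA (adjusted p = 0.55) and fell by 0.35 with paxillin siRNA (adjusted p = 0.00189). HMMR, a spindle-bound hyaluronan receptor, stood at -0.13 (adjusted p = 0.202) and fell by 0.24 (adjusted p = 0.0188), a call lost without paxillin vehicle replicate 2 (0.0739) or DHT replicate 1 (0.0664). DLGAP5, a spindle protein, fell by 0.28 (adjusted p = 0.0163) and 0.35 (adjusted p = 0.00385), and the first call was lost without nonspecific vehicle replicate 2 or 3 or DHT replicate 1 or 3 (0.0556 to 0.087).

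TOP2A and MKI67, both used as proliferation markers, differed in size of change. TOP2A, the topoisomerase that untangles sister chromatids, had 68.5, 80.1 and 71.0 CPM in nonspecific vehicle and 49.3, 47.0 and 43.2 CPM in nonspecific DHT. Its paxillin libraries had 60.9, 63.2 and 62.9 CPM in vehicle and 42.9, 42.3 and 45.0 CPM in DHT. Vehicle and DHT did not overlap, and TOP2A fell 1.58-fold (log2 fold change -0.66 ± 0.07 SE, edgeR adjusted p = 5.54e-07) and 1.44-fold (-0.52 ± 0.07, adjusted p = 8.44e-06). MKI67, which encodes the Ki-67 antigen that coats mitotic chromosomes, had 115, 123 and 116 CPM in nonspecific vehicle and 108, 105 and 107 CPM in nonspecific DHT. With paxillin siRNA it had 109, 123 and 140 CPM in vehicle and 98.4, 115 and 107 CPM in DHT, and those groups overlapped. Its log2 fold change was -0.15 (adjusted p = 0.156) with nonspecific siRNA and -0.22 (adjusted p = 0.0383) with paxillin siRNA, and the second call was lost without any of 4 of the 6 libraries compared (adjusted p = 0.0624 to 0.213).

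**Figure D3:**
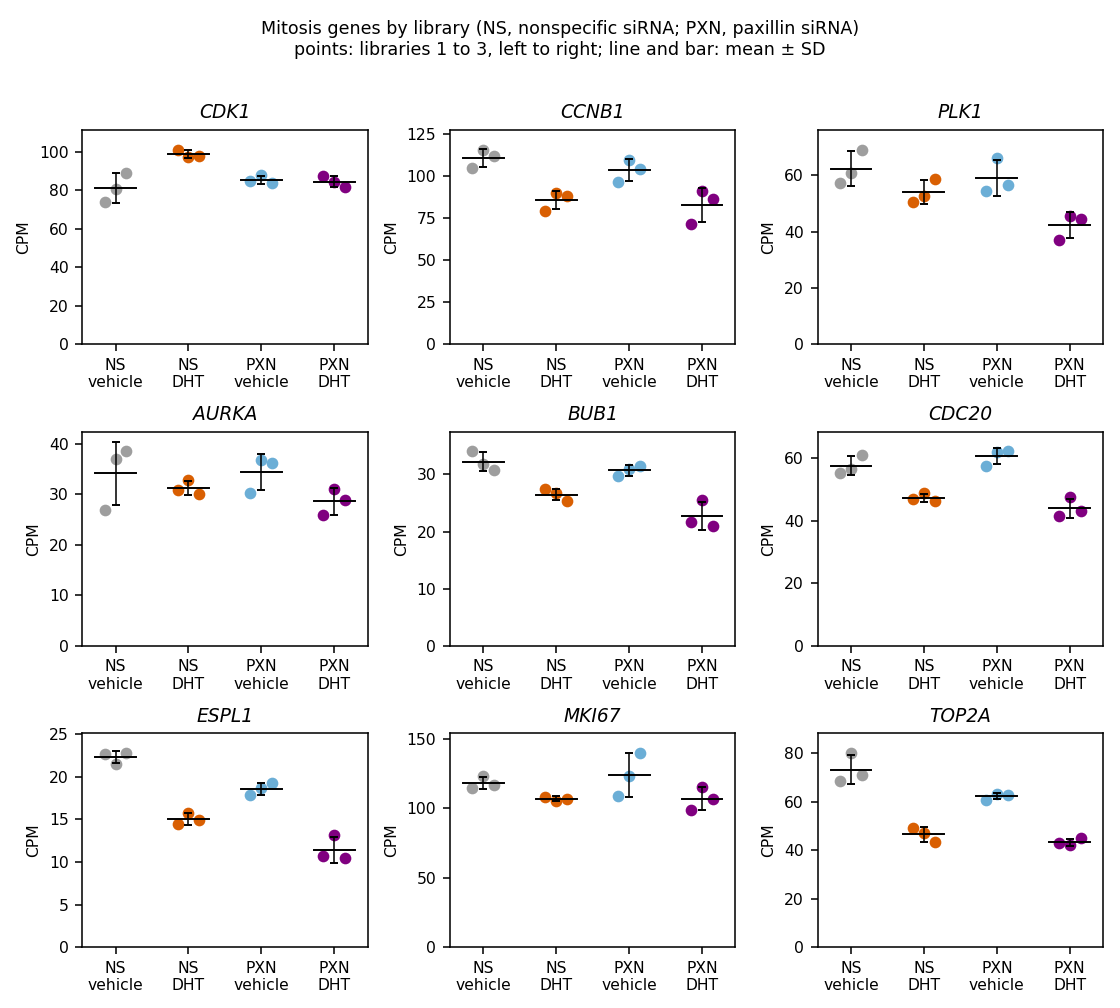
CPM of 9 members in each library, by group, with the mean and SD of the 3 libraries. TOP2A and ESPL1 are lower in the DHT groups with no overlap, CDK1 is highest in nonspecific DHT, and the AURKA groups overlap.

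The next comparison set paxillin siRNA against nonspecific siRNA in vehicle, where few of the mitosis genes differed. Of the 35, 2 fell (TOP2A and ESPL1), none rose and 33 did not pass the test, against a background of 9.78% lower and 10.7% higher. The median log2 fold change was -0.08, against -0.01 over all genes. TOP2A fell by 0.24 (edgeR adjusted p = 0.0199) and ESPL1 by 0.26 (adjusted p = 0.0495). ESPL1 was at the edge of the threshold: it lost its call with RLE scaling (adjusted p = 0.0539), upper-quartile scaling (0.0525), no filter (0.144) and DESeq2 (0.053). It also lost it without any 1 of the 6 vehicle libraries (0.089 to 0.139) or any 1 of the 3 nonspecific DHT libraries, which are not part of the comparison (0.0539 to 0.0625). Neither call held up against every library: no member was called lower without nonspecific vehicle replicate 2 or without any 1 of the 3 paxillin vehicle libraries. With the replicate block 5 members fell (TOP2A, ESPL1, CENPE, KIF11 and KIF20A) and TPX2 and ANLN rose. ANLN, at 0.23 (adjusted p = 0.0508), had an adjusted p of 0.00926 with that block, and TPX2, at 0.17, had 0.0421.

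In DHT, paxillin siRNA lowered 7 of the 35 (CDK1, CCNB2, PLK1, ESPL1, KIF20A, NUSAP1 and PRC1), raised none and left 28 uncalled, against a background of 7% lower and 6.34% higher. The median was -0.19, against 0.00 over all genes, and 34 of 35 values lay below 0, the exception being NDC80 at 0.11. The 2 siRNA comparisons share no libraries, and ESPL1 was the 1 member called in both, its call in vehicle being the unstable one described above. It was 1 of the 2 members called in vehicle and 1 of the 7 (14.3%) called in DHT. Over all genes, 44.4% of those called lower in vehicle were called lower in DHT, and 62.1% the other way round.

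ESPL1 fell 1.32-fold in DHT (log2 fold change -0.40 ± 0.10 SE, edgeR adjusted p = 0.0098), PLK1 1.28-fold (-0.35 ± 0.10, adjusted p = 0.0204) and CCNB2 1.22-fold (adjusted p = 0.0291). KIF20A had 50.3, 48.4 and 47.4 CPM in nonspecific vehicle, 49.9, 45.4 and 46.9 CPM in nonspecific DHT, 39.4, 45.3 and 42.7 CPM in paxillin vehicle and 38.4, 42.3 and 35.2 CPM in paxillin DHT. All nonspecific libraries of KIF20A lay above all paxillin libraries, whatever the treatment. Its log2 fold change was -0.20 in vehicle (adjusted p = 0.0742; called with the replicate block) and -0.29 in DHT (adjusted p = 0.014). CDK1 fell 1.17-fold in DHT (adjusted p = 0.0261), with a value of 0.07 in vehicle (adjusted p = 0.497).

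These calls rested on few libraries. The count of members called lower fell from 7 to 3 without nonspecific DHT replicate 1 or 3 or paxillin DHT replicate 1 or 3, and to 4 without nonspecific DHT replicate 2. It was also 3 without replicate 1 in all 4 groups. With the replicate block it was 10, the additions being BUB1 (adjusted p = 0.0357), NUF2 (0.0309) and TTK (0.0188), whose log2 fold change of -0.43 had an adjusted p of 0.0521 without the block. CDK1 lost its call without any of 5 of the 6 DHT libraries (adjusted p = 0.0581 to 0.1), PLK1 without nonspecific DHT replicate 3 (0.0924) or paxillin DHT replicate 1 (0.0793), and ESPL1 without paxillin DHT replicate 3 (0.0505). KIF20A lost it without nonspecific DHT replicate 1 (0.0631) or paxillin DHT replicate 3 (0.0773), and CCNB2 without nonspecific DHT replicate 2 or 3 or paxillin DHT replicate 1 (0.0667 to 0.112). NUSAP1 (0.0624 to 0.106) and PRC1 (0.0862 to 0.175) lost it without any of 4 of the 6 DHT libraries. With no filter on low counts 5 members were called, and CDK1 (0.0508), NUSAP1 (0.0745) and PRC1 (0.12) lost their calls. PRC1 also lost it with the compared groups alone (0.0662) and without paxillin vehicle replicate 2 (0.0573).

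**Figure D4:**
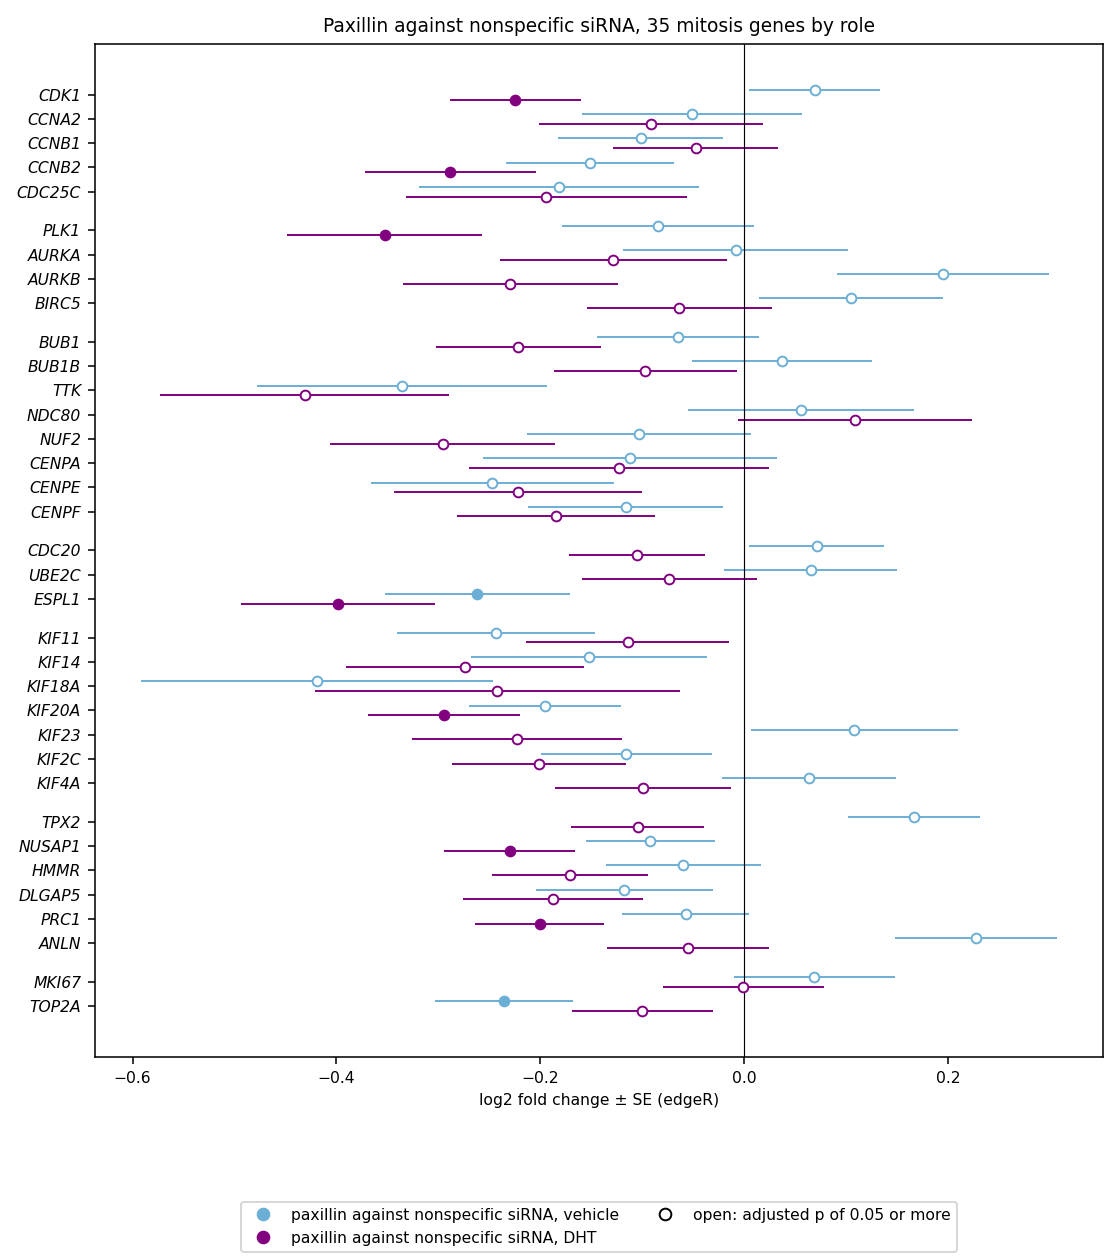
Log2 fold change of paxillin against nonspecific siRNA for the 35 members, grouped by role, in vehicle (light blue) and in DHT (purple). Points are estimates with their SE from edgeR, and open points have an adjusted p of 0.05 or more. Filled points are TOP2A and ESPL1 in vehicle and 7 members in DHT.

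Whether the DHT response itself differed between the siRNAs was tested as an interaction. No member was called by edgeR, by DESeq2 or by limma-voom. The background of edgeR calls was 0.0124% of genes lower and 0.0372% higher. An unadjusted edgeR p under 0.05 was found for 5 of 35 members, against 1435 of all 16115 genes. In 29 of 35 members the DHT log2 fold change was lower with paxillin siRNA, against 8086 of the 16115 genes. The median interaction was -0.12, against -0.00 over all genes. CDK1 had the smallest p (interaction -0.29, edgeR adjusted p = 0.369), followed by TPX2 (-0.27, adjusted p = 0.418) and AURKB (-0.42, adjusted p = 0.438). The larger number of members called with DHT under paxillin siRNA is thus not shown to be a different response.

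The members also moved together between libraries of 1 group. Their mean log2 CPM was 4.91, 5.04 and 5.05 in nonspecific vehicle, 4.77, 4.76 and 4.76 in nonspecific DHT, 4.85, 5.01 and 4.97 in paxillin vehicle, and 4.50, 4.67 and 4.58 in paxillin DHT. No DHT library reached a vehicle library of either siRNA, and no paxillin DHT library reached a nonspecific DHT library. Replicate 1 was the lowest library of its group for 27 of 35 members in nonspecific vehicle, 29 in paxillin vehicle and 19 in paxillin DHT, but for 9 in nonspecific DHT. The members' median deviations from the group mean in these libraries were -0.0958, -0.0956, -0.0827 and 0.0210, in that order. Over all genes, which the scaling centers, they were 0.00738, -0.000482, 0.00145 and 0.000399. Such counts of lowest libraries were not made over all genes. Nonspecific vehicle replicate 1 had the fewest counts of all libraries and paxillin vehicle replicate 1 the most of its group (29037657). Paxillin DHT replicate 2 was the highest of its group for 25 members. Without replicate 1 in all 4 groups, a setting chosen after seeing the data, DHT lowered 19 members with nonspecific siRNA and 27 with paxillin siRNA.

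**Figure D5:**
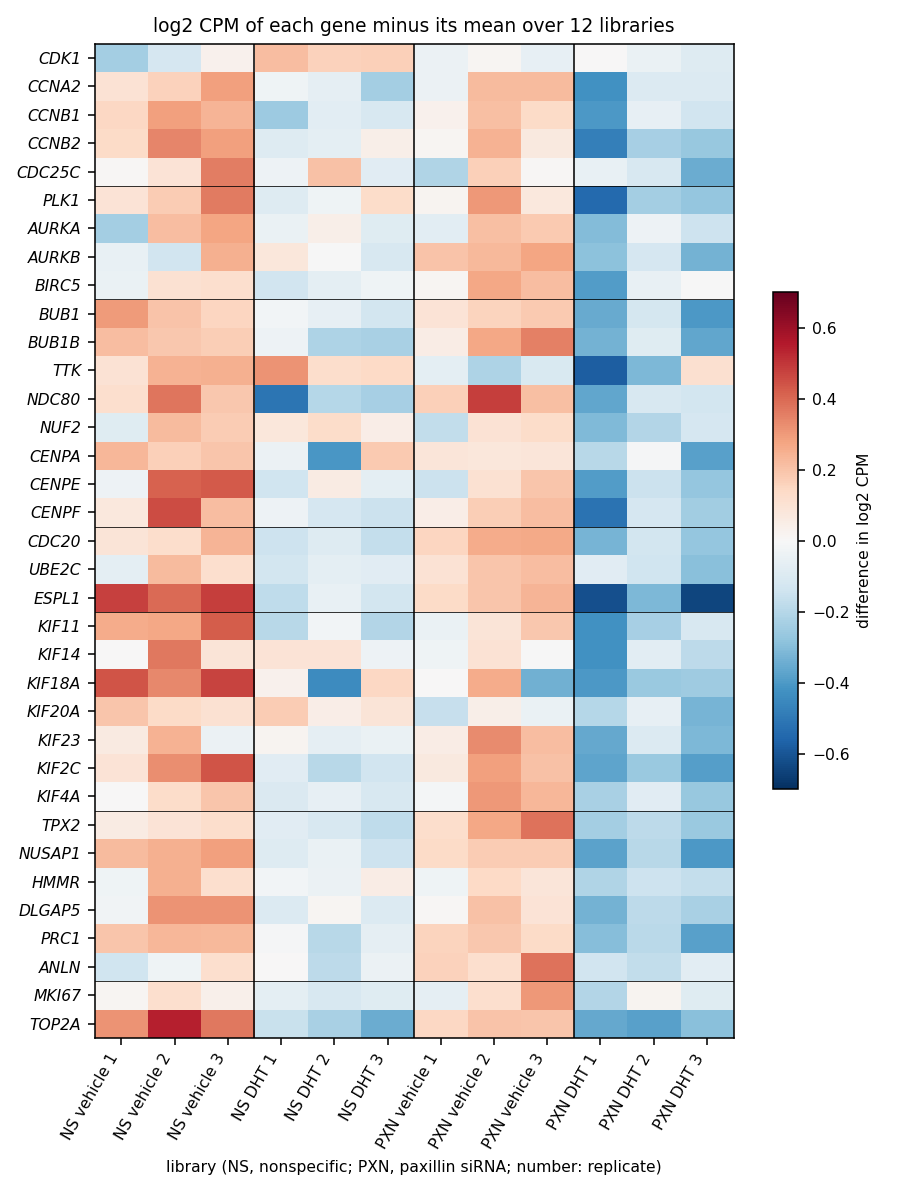
Log2 CPM of each member minus its mean over the 12 libraries, with libraries in columns by group and members in rows by role. Vehicle columns are mostly red (higher) and DHT columns mostly blue (lower), with CDK1 as an exception, and the lowest mean over members is that of paxillin DHT replicate 1.

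Members called and not called were found in each promoter class. Of the 19 members with both CCAAT and a CHR element, DHT lowered 11 and raised 1 with nonspecific siRNA and lowered 15 with paxillin siRNA. Of the 8 with 1 of the elements it lowered 4 and 6, and of the 3 with neither it lowered 2 and 2 (CENPE and KIF2C in both). No test was made between these small classes, which count TTTGAA and TTCGAA as the only CHR elements. With nonspecific siRNA CDK1 rose and CCNB2 fell. Both hold the 2 elements, but in the different layouts given above, and whether layout bears on the change was not tested.

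Other genes of the cell cycle were counted in the same way, with no test of the lists. With nonspecific siRNA their shares called lower were closer to the 18.9% of all genes than that of the members (51.4%). Of 40 further centromere, kinetochore and checkpoint genes, 9 fell (22.5%, near the background) and 2 rose with nonspecific siRNA, and 15 fell (37.5%, against 17.9% of all genes) and 3 rose with paxillin siRNA. Of 27 further spindle and cytokinesis genes, 8 fell (29.6%) and 2 rose, and 17 fell (63.0%) and 2 rose. Among 38 genes of DNA replication, 11 were lower (28.9%) and 4 higher with nonspecific siRNA, and 26 lower (68.4%) and 1 higher with paxillin siRNA. Medians of these lists were -0.12, -0.13 and -0.10 with nonspecific siRNA, and -0.21, -0.33 and -0.32 with paxillin siRNA. The counts with nonspecific siRNA depended on the scaling: with upper-quartile scaling, which also called more of all genes lower, 16 of the centromere, 14 of the spindle and 17 of the replication genes were called lower. Of 17 subunits and regulators of the anaphase-promoting complex that are not members, 5 rose (29.4%) and 2 fell (11.8%) with nonspecific siRNA. Over all genes 21.6% rose and 18.9% fell. With paxillin siRNA 3 rose (17.6%) and 2 fell (11.8%), against 20.1% and 17.9% of all genes. The medians were 0.09 and 0.04. With upper-quartile scaling the counts became 4 rising and 4 falling, then 2 and 4, with medians of 0.01 and -0.05.

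Single genes went far against these lists. CENPN, a centromere protein, rose by 2.60 on the log2 scale with DHT under nonspecific siRNA (edgeR adjusted p = 1.05e-13) and by 2.68 under paxillin siRNA (adjusted p = 5.62e-14). NCAPD3, a condensin II subunit, rose by 1.08 (adjusted p = 5.27e-08) and 1.61 (adjusted p = 2.44e-10). KNSTRN, a spindle and kinetochore protein, rose by 0.70 and 0.48. In the direction of the members, CENPP fell by 1.00 and 0.98, and SMC4, a condensin subunit, fell by 0.56 with nonspecific siRNA.

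Of 22 condensin, cohesin and securin genes, 5 fell (22.7%) and 4 rose (18.2%) with nonspecific siRNA, shares near those of all genes (18.9% and 21.6%). With paxillin siRNA 10 fell (45.5%) and 4 rose. Of 16 other mitotic entry kinases and phosphatases, 4 fell (25%) and 2 rose (12.5%) with nonspecific siRNA. With paxillin siRNA 9 fell (56.2%, against 17.9% of all genes) and 1 rose (6.25%, against 20.1%). With upper-quartile scaling 10 and 8 genes of these lists fell with nonspecific siRNA. WEE1, the kinase that holds CDK1 inactive, fell by 0.47 with nonspecific siRNA (edgeR adjusted p = 0.00472). PKMYT1, which also inhibits CDK1, fell by 0.59 with DHT under paxillin siRNA (adjusted p = 0.000163) and rose by 0.55 with paxillin siRNA in vehicle (adjusted p = 0.00136). With DHT, ENSA fell by 0.45 and 0.55, and ARPP19 rose by 0.21 and 0.29, nonspecific siRNA first. CDC25A rose by 0.32 with DHT under nonspecific siRNA (adjusted p = 0.0135). Paxillin siRNA raised CDC25A by 0.53 in vehicle (adjusted p = 0.000912) and 0.33 in DHT (adjusted p = 0.0242). It raised 4 of the 16 genes (25%, against 10.7% of all genes) in vehicle and 2 (12.5%, against 6.34%) in DHT, and lowered 0 in each.

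Among 23 transcription factors of cell cycle genes, 4 fell (17.4%, against 18.9% of all genes) and 1 rose with DHT under nonspecific siRNA, and 6 fell (26.1%, against 17.9%) and 1 rose under paxillin siRNA. NFYA and NFYB, subunits of NF-Y, fell by 0.27 and 0.35 with nonspecific siRNA (edgeR adjusted p = 0.00773 and 0.00433). FOXM1, the activator that joins MuvB on CHR elements, stood at -0.18 with DHT under nonspecific siRNA (adjusted p = 0.147; 0.0388 with the replicate block) and fell by 0.32 under paxillin siRNA (adjusted p = 0.0121). Paxillin siRNA in DHT lowered FOXM1 by 0.38 (adjusted p = 0.0123) and MYBL2, the B-MYB gene, by 0.48 (adjusted p = 0.000813). In vehicle, paxillin siRNA lowered 2 of the 23 (8.7%, against 9.78% of all genes) and raised 1 (4.35%, against 10.7%). NFYA fell by 0.25 (edgeR adjusted p = 0.0246) and TFDP2 by 0.22 (adjusted p = 0.0132), and E2F1 rose by 0.47 (adjusted p = 0.00217).

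The G1 regulators had medians above 0. Of 14 tested CDK inhibitors and G1 cyclins and kinases, 5 rose (35.7%) and 1 fell (7.14%) with DHT under nonspecific siRNA. Over all genes the shares were 21.6% higher and 18.9% lower, and the list's median was 0.23. Under paxillin siRNA 3 rose (21.4%) and 2 fell (14.3%), near the 20.1% and 17.9% of all genes, with a median of 0.13. With upper-quartile scaling the medians were 0.15 and 0.04. CDK6 rose by 1.82 and 1.53, and CDKN2C, the p18 inhibitor, fell by 0.50 and 0.71. CDKN1A, the p21 inhibitor, rose by 0.31 with DHT under nonspecific siRNA (adjusted p = 0.00781) and fell with paxillin siRNA by 0.59 in DHT (edgeR adjusted p = 0.000291) and by 0.31 in vehicle (adjusted p = 0.0181).

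In the siRNA comparisons the background was 9.78% lower and 10.7% higher in vehicle and 7% and 6.34% in DHT. In vehicle, paxillin siRNA raised 6 and lowered 1 of the 38 replication genes, and in DHT it raised none and lowered 7. Of the 40 centromere genes it lowered 5 (12.5%) in vehicle and 8 (20%) in DHT, and it raised CDCA8, a subunit of the chromosomal passenger complex, in vehicle (0.33, edgeR adjusted p = 0.016). Of the 22 condensin and cohesin genes it lowered 6 (27.3%) in vehicle and 5 (22.7%) in DHT, and it raised NCAPD3 in DHT (0.47, adjusted p = 0.00224). CDCA8 and NCAPD3 are named here after their values were seen. NCAPD2, a condensin I subunit, fell by 0.47 in vehicle (edgeR adjusted p = 0.000346) and 0.63 in DHT (adjusted p = 6.26e-05).

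KLK3, the PSA gene and a marker of luminal prostate cells, rose with DHT by 1.05 under nonspecific siRNA and by 1.21 under paxillin siRNA.

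Some member counts are uncertain because the sources used here do not give the strand setting of the counting. By GENCODE 29, exons overlap a gene on the opposite strand for CCNA2 (EXOSC9), CDC25C (FAM53C), KIF20A (BRD8 and CDC23), KIF4A (PDZD11), ANLN (KIAA0895), KIF18A (METTL15), NUF2 (RGS5), PRC1 (PRC1-AS1), HMMR (HMMR-AS1), PLK1 (AC008870.3 over 553 bases, and ERN2), KIF23 (AC027237.3) and KIF2C (AL592166.1). On the same strand, PRC1 shares 3181 exon bases with AC068831.7, NUSAP1 1787 with AC087721.2, BUB1B 457 with BUB1B-PAK6 and CENPA 138 with SLC35F6. The table also lists CDC20P1, a copy of CDC20, with 334 counts over the 12 libraries against 15938 for CDC20, and KIF4B with 21 against 9109 for KIF4A.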

How the data were processed

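RNA was sequenced in 12 C4-2 libraries, made with a stranded mRNA kit per the labels' protocols. The authors deposited raw counts per gene symbol, and the submitters' processing notes name Trimmomatic 0.36, STAR 2.5.2b, featureCounts of Subread 1.5.0p3 and GRCh38. The annotation release and strand setting were not given in these sources. The members and gene lists were chosen with earlier results of these data known. Every member was described by role, with library values for a panel and for the largest called changes. In the other lists up to 2 called changes in each direction were named, and the DHT values of FOXM1 and CDKN1A were added after they were seen. Some of the luminal prostate markers are not reported here.

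The analysis used edgeR 4.0.16 in R 4.3.3. filterByExpr (minimum count 10, minimum total 15) kept 16115 genes, libraries were scaled by TMM, and 1 quasi-likelihood model of 4 group means was fitted to all 12 libraries. A gene was called where the Benjamini-Hochberg adjusted p was under 0.05. SEs were derived from the F statistic. The pipeline was tested on simulated data, where recovery was required only of changes larger than that of any member. That check therefore does not cover changes as small as those of the members. Alternatives used RLE and upper-quartile scaling, no filter, DESeq2 1.42.0, limma-voom (limma 3.58.1), a replicate block, the compared groups alone and leaving out each library.

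The 4 groups share replicate numbers in the labels. Over 9721 genes, deviations from the mean of the group had correlations of 0.167 to 0.499 between same-numbered libraries (18 pairs), against -0.435 to 0.222 between others (36 pairs). The numbers were read as a possible pairing of the samples. The main calls leave this pairing out, and the replicate block is the alternative that includes it. With the block, DHT lowered 20 members with nonspecific siRNA and 28 with paxillin siRNA, against 18 and 26 without it. Over the 35 members alone the pattern was weak: same-numbered libraries had correlations of -0.532 to 0.393 (median 0.0721, 8 of 18 pairs over 0.1), and others of -0.532 to 0.438 (9 of 36 over 0.1). The pairing comes from the data, since the labels do not say what a number marks. Replicates of a group differed by more than sampling noise (chi-square over degrees of freedom from 6.16 to 18.6). Promoters are those of RefSeq, and lengths those of GENCODE 29, matched by symbol.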

Additional observations from a re-analysis of the deposited data

How the results depend on the processing

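With DHT under nonspecific siRNA, 13 to 22 members were called lower and 1 higher under every alternative run, and under paxillin siRNA 20 to 30 were called lower and none higher. The median under paxillin siRNA was -0.43 with upper-quartile scaling and ran from -0.43 to -0.33 when 1 library was left out. The members' median minus that of all genes was -0.25 and -0.34 under both scalings, nonspecific siRNA first.

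For paxillin siRNA in vehicle, 1 member was called lower and 1 higher with RLE scaling, upper-quartile scaling, no filter, DESeq2 and without replicate 1 in all 4 groups, TOP2A being lower and ANLN higher in the first 4. When 1 library was left out, 0 to 3 were called lower and 0 to 2 higher. With the replicate block 5 were called lower and 2 higher. In DHT, leaving out 1 library gave 3 to 7 members called lower, leaving out replicate 1 in all 4 groups gave 3, no filter gave 5, and the replicate block gave 10. Beyond the calls given beside the results, the block changed no other member's call, and it raised the interaction calls over all genes from 2 lower and 6 higher to 55 and 42, none of them a member.

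Small siRNA log2 fold changes that passed no test changed sign. In vehicle, AURKA was 0.00855 with no filter, 0.00495 with DESeq2, 0.000633 with the block and -0.13 to 0.0913 when 1 library was left out, PLK1 ran from -0.165 to 0.00507 and MKI67 from -0.0201 to 0.162. In DHT, MKI67 was 0.0034 with RLE scaling, 0.0103 with no filter, 0.00349 with DESeq2, 0.0661 without replicate 1 in all 4 groups and -0.0565 to 0.0556 when 1 library was left out, and CCNB1 ran from -0.118 to 0.0489. Where a group was left with 2 libraries, the spread was pooled over the groups. The cause of these changes of sign was not tested. With 3 libraries a group, a change as small as those of MKI67 or AURKA may be missed.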
